A study of Mus musculus with 12 samples.

Results

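The genes described here encode the ligands, receptors, SMAD proteins, antagonists and latent TGF-beta binding proteins of transforming growth factor beta (TGF-beta) and bone morphogenetic protein (BMP) signalling. They were chosen by gene symbol in the array annotation, a rule that uses no measured value, and only probe sets annotated to exactly 1 gene were used. The symbols began with Bmp, Gdf, Tgfb, Smad or Ltbp and a digit, or with Acvr, Bmpr, Tgfbr, Grem or Chrd, or were Inhba, Inhbb or Nog. Of 19938 genes measured, 56 matched, each read by 1 probe set, and 1 further matching probe set shared by several genes was left out. The match by symbol also took in the secreted metalloprotease gene Bmp1, the kinase gene Bmp2k, and Tgfb1i1 and Tgfbrap1, which encode a focal adhesion protein and a receptor-associated trafficking protein.

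Ligands of this family bind pairs of type I and type II receptor kinases on the cell surface. In most cells TGF-beta and activin receptors phosphorylate Smad2 and Smad3, BMP receptors phosphorylate Smad1, Smad5 and Smad9, and both sets enter the nucleus with Smad4, while Smad6 and Smad7 inhibit the signal. Secreted proteins such as noggin and gremlin hold BMPs away from their receptors, and latent binding proteins store TGF-beta in the matrix. In cultures that form fat cells TGF-beta is known to restrain differentiation, several BMPs are known to favour commitment to the adipocyte lineage, and the type I receptor ALK7, encoded by Acvr1c, is known as a receptor of mature adipocytes.

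The cells were fibroblasts grown from C57BL6 mouse embryos at embryonic day 14, in 4 groups of 3 samples, namely differentiated and undifferentiated D1D2KO cells and differentiated and undifferentiated wild-type (WT) cells. According to the labels D1D2KO cells are without DGAT1 and DGAT2, diacylglycerol acyltransferases that complete triacylglycerol synthesis. Both genotypes were grown in DMEM with serum. For differentiation into adipocytes, the cultures were treated from 2 days after confluence for 2 to 3 days with 5 µg/ml insulin, 15 µM troglitazone, 1 µM dexamethasone and 500 µM isobutylmethylxanthine. Insulin and troglitazone at the same concentrations followed for 2 days, and then plain medium until harvest. The labels do not say how the alleles were made or at which day after treatment the cells were harvested. The samples are described as biological replicates without naming an embryo or culture, so each p-value measures only how far these samples spread, which may be technical.

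Promoter sequences are printed for 4 genes whose values carry the results below, namely Acvr1c, Inhba, Ltbp2 and Grem1. They come from RefSeq (GRCm38.p6), cover 250 bases before to 50 bases after the annotated transcription start, and are written 5′ to 3′ on the strand of the gene. They were searched on both strands for the SMAD box CAGAC, which reads GTCTG on the other strand, and for a C/EBP site, TTGCNNAA, which reads TTNNGCAA on the other strand, C/EBP proteins being transcription factors of adipocyte differentiation. Capitals mark the matches, and in the C/EBP site the bases that the pattern leaves free are in lower case. The window of Acvr1c lies at chr2:58357709-58358008 on the minus strand and is the more upstream of 2 listed windows. That of Inhba lies at chr13:16011601-16011900 on the plus strand, that of Ltbp2 at chr12:84876442-84876741 on the minus strand, and that of Grem1 at chr2:113758599-113758898 on the minus strand.
Acvr1c: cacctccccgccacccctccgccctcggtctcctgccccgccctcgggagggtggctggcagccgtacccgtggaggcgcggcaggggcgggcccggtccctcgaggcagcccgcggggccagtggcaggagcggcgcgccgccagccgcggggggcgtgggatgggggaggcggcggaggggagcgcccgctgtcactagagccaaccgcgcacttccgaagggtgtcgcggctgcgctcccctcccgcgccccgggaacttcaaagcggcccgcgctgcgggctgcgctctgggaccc
Inhba: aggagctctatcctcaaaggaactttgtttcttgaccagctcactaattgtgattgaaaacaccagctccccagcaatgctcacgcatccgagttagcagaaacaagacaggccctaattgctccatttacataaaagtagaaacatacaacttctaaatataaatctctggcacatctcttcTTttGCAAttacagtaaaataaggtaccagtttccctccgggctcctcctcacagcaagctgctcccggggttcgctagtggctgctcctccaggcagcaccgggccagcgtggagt
Ltbp2: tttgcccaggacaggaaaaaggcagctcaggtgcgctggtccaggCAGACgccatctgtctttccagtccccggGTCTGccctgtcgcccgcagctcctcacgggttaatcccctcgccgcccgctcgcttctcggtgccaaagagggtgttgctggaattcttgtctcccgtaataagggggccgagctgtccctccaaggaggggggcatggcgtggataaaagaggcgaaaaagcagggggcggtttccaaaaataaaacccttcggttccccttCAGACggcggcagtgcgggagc
Grem1: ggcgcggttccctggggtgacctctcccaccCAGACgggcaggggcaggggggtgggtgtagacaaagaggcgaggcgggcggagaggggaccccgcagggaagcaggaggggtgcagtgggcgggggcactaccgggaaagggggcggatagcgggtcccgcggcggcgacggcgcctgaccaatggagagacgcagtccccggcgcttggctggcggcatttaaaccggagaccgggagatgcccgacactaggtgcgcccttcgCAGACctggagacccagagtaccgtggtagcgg
The Acvr1c window held no match, the Inhba window 1 C/EBP site, the Ltbp2 window 3 SMAD boxes and the Grem1 window 2. Of the 56 genes 38 had a listed promoter, and 18 of these (47.4%) held a SMAD box in either orientation, against 49.6% of 32851 promoter windows of the same length. A C/EBP site was present in 4 of the 38 (10.5%), against 10.8% of all windows. A gene was counted if any of its listed windows held a match, while the shares of all windows count single windows, so the units differ. A match describes letters in the window and not a bound site.

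All values are log2 array signals as deposited, differences are log2 differences given with their standard error (SE) from a limma fit over 12 arrays, and a gene was called when its Benjamini-Hochberg adjusted p over 19938 genes was under 0.05. The number of arrays limits the precision. Both targeted genes were lower in D1D2KO than WT cells in each state, in every sample. Dgat1 was at 38.2% of WT after and 39.4% before differentiation, with 8.26, 8.03 and 7.75 in differentiated D1D2KO against 9.36, 9.33 and 9.53 in differentiated WT cells, and 5.56, 5.60 and 5.66 in undifferentiated D1D2KO against 6.94, 6.93 and 6.98 in undifferentiated WT cells. Dgat2 was at 31.4% of WT after and 72.0% before, with 8.37, 8.62 and 8.66 in differentiated D1D2KO against 10.28, 9.86 and 10.53 in differentiated WT cells, and 5.44, 5.50 and 5.51 in undifferentiated D1D2KO against 5.94, 5.98 and 5.95 in undifferentiated WT cells. Both signals persisted in D1D2KO cells and rose there with differentiation, Dgat1 5.31-fold and Dgat2 8.38-fold, and whether the probes lie in the deleted parts is not known here. Of 9 measured adipocyte markers, 9 rose with differentiation in each genotype, and their mean signal per sample was 10.58 to 10.80 in D1D2KO and 10.21 to 10.37 in WT differentiated cells. Fibroblast markers fell in 9 of 10 cases in D1D2KO and 8 of 10 in WT cells, to means of 10.16 to 10.29 in D1D2KO and 10.55 to 10.60 in WT differentiated cells, against 11.10 to 11.14 in undifferentiated cells of either genotype. Macrophage markers also fell, 8 of 9 in each genotype, to means of 7.99 to 8.14 in D1D2KO and 8.15 to 8.36 in WT differentiated cells, against 9.45 to 9.56 in undifferentiated cells, and 0 of these 9 markers lay under the lower quartile on all 12 arrays. Neural and glial markers fell in 4 of 5 cases in each genotype, and endothelial markers in 2 of 7 in D1D2KO and 3 of 7 in WT cells. Bone and cartilage markers fell in 3 of 7 cases in D1D2KO and 2 of 7 in WT cells, where 1 rose. Epithelial markers fell in 1 of 5 cases in each genotype. Of all genes 21.2% fell in D1D2KO and 19.4% in WT cells. All 6 smooth muscle markers were called lower in D1D2KO cells in each state, with means of 8.32 to 8.41 in D1D2KO and 10.25 to 10.44 in WT differentiated cells, and of 9.18 to 9.50 in D1D2KO and 10.54 to 10.70 in WT undifferentiated cells. The part of these marker shifts in the results below was not tested, and in bulk cultures fewer cells of a type and less RNA per cell cannot be told apart.

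Most genes of the pathway that changed with differentiation fell, in both genotypes. In D1D2KO cells 37 of the 56 were called (66.1%, against 36.7% of all genes), of which 3 rose and 34 fell, where 15.4% of all genes rose and 21.2% fell. In WT cells 33 were called (58.9%, against 34.1% of all genes), of which 6 rose and 27 fell, where 14.7% of all genes rose and 19.4% fell. The median difference of the 56 was -0.42 in D1D2KO and -0.26 in WT cells, against 0.01 and 0.02 over all genes. Samples of the 2 states did not overlap for 5 higher and 36 lower genes in D1D2KO cells (21.5% and 26.6% of all genes, 48.1% in either direction) and for 7 higher and 29 lower genes in WT cells (19.9% and 24.0% of all genes, 43.9% in either direction). In both genotypes 27 genes fell and 3 rose, namely Acvr1c, Inhbb and Acvr2b, and 0 were called in opposite directions. Of all 19938 genes, 3289 fell and 2199 rose in both genotypes, and 11 were called in opposite directions. Among all genes, 1812 were called in D1D2KO cells alone and 1295 in WT cells alone, in either direction. A further 7 of the 56 genes were called in D1D2KO cells alone, all lower (Bmp6, Acvrl1, Smad1, Smad4, Smad7, Ltbp2 and Bmp2k). In WT cells alone 3 of the 56 were called, all higher (Bmp10, Acvr1b and Chrd). Of these 10, only Ltbp2 passed the test for a difference in response, so the other calls are not shown to differ between the genotypes. The 2 responses rest on separate samples. The 56 genes had a median signal of 7.02, against 6.05 over all genes, and 47 of them lay above the lower quartile of every array. In a fit to genes above the median signal, 28 of 39 members and 5442 of all 9969 genes were called for differentiation in WT cells. The part of signal level in the shares called was not tested.

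**Figure D1:**
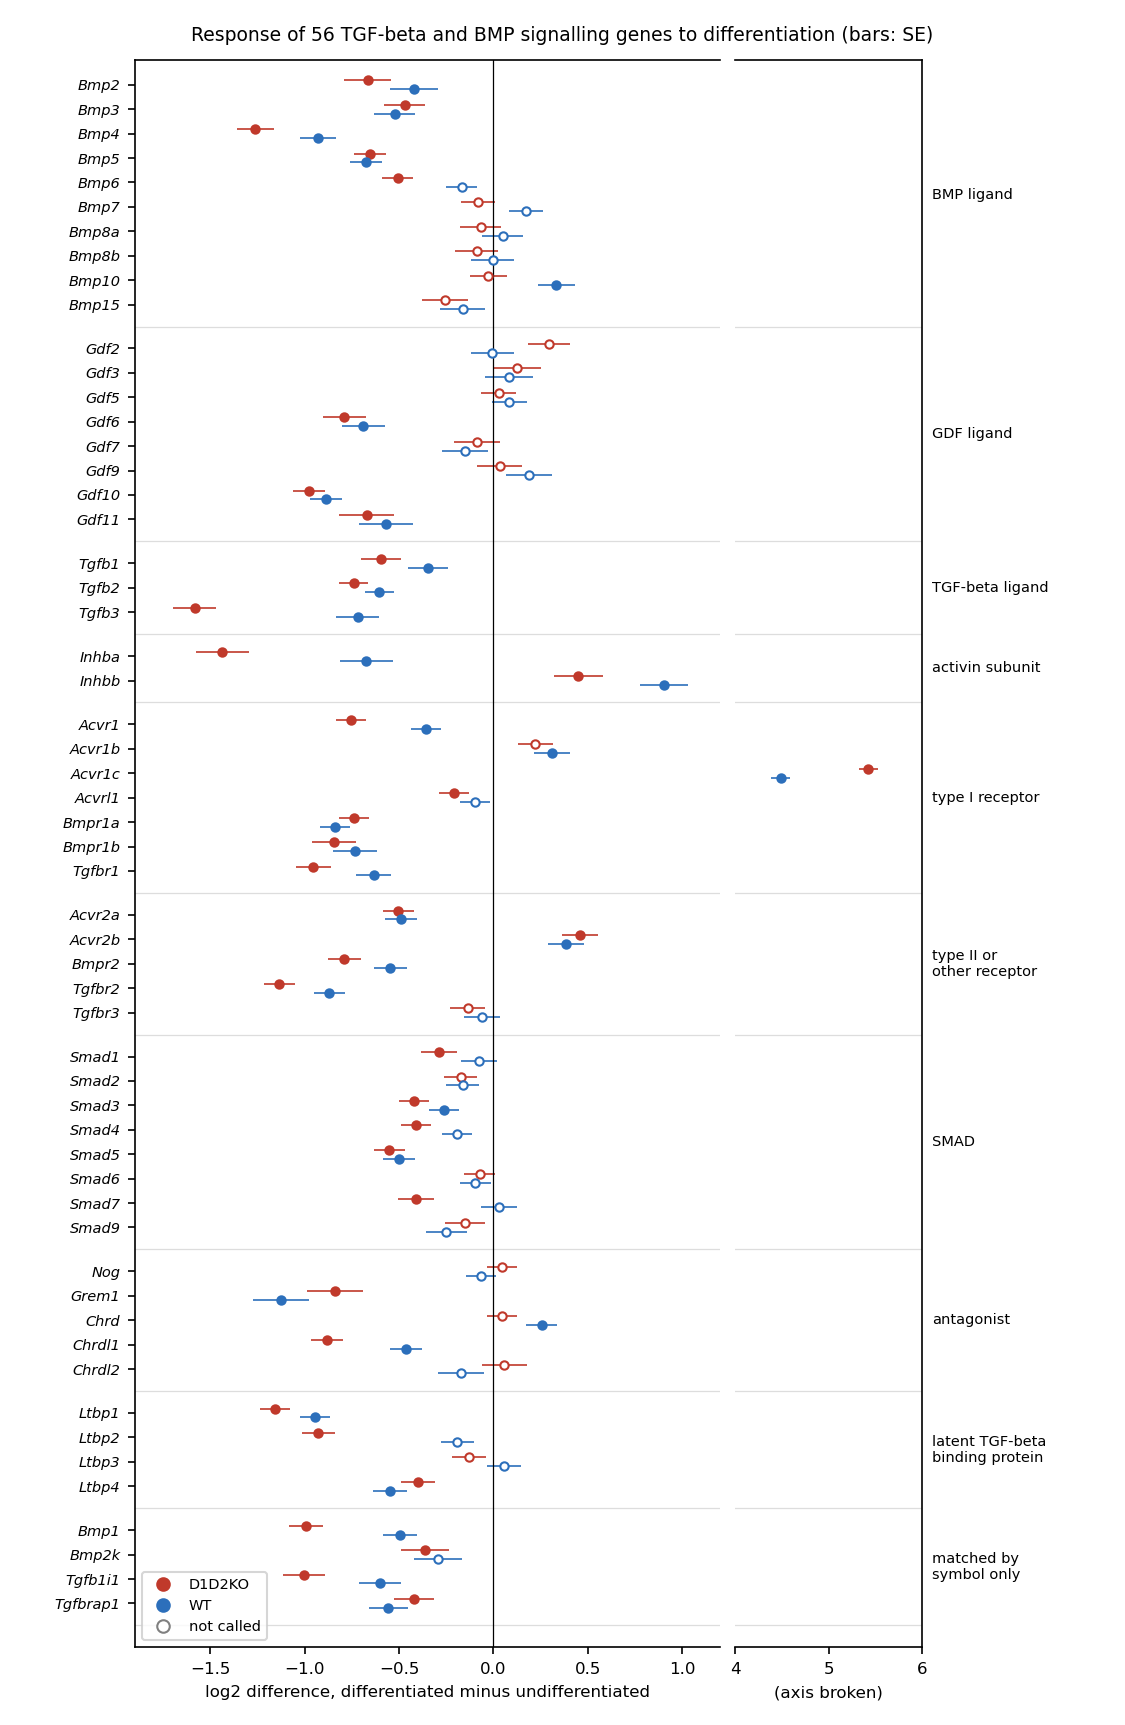
Response of each of the 56 genes to differentiation, as the log2 difference of differentiated minus undifferentiated cells (horizontal axis, broken between its 2 panels), with D1D2KO in red above WT in blue, bars for the SE of the fit and open points for genes not called. Most points lie left of 0, and Acvr1c stands alone in the right panel at 5.42 in D1D2KO and 4.48 in WT cells.

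More of the genes were called between the genotypes after differentiation than before it. In differentiated cells 19 of the 56 genes were called between D1D2KO and WT (33.9%, against 13.7% of all genes). Of these, Acvr1c and Bmp5 were higher in D1D2KO cells and 17 were lower, where 6.25% of all genes were higher and 7.42% lower. Their samples did not overlap between the genotypes for 7 higher and 20 lower genes (16.7% and 14.2% of all genes, 30.9% in either direction). In undifferentiated cells 5 were called (8.93%, against 8.02% of all genes). Bmp5 and Chrdl1 were higher in D1D2KO cells and Grem1, Ltbp1 and Gdf6 lower, where 4.40% of all genes were higher and 3.62% lower, a share of calls near that of all genes. There, 10 higher and 10 lower genes did not overlap (19.7% and 19.6% of all genes, 39.3% in either direction). The count of 5 was 3 without WT undifferentiated replicate 1, without WT undifferentiated replicate 2 or without D1D2KO undifferentiated replicate 1, and rose to 14 with array weights. The difference between the responses was called for 3 genes (5.36%, against 1.46% of all genes), Acvr1c with a more positive response in D1D2KO cells (0.747% of all genes) and Tgfb3 and Ltbp2 with a more negative one (0.712% of all genes). Another 12 of the 56 had an unadjusted p under 0.05 there without being called.

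**Figure D2:**
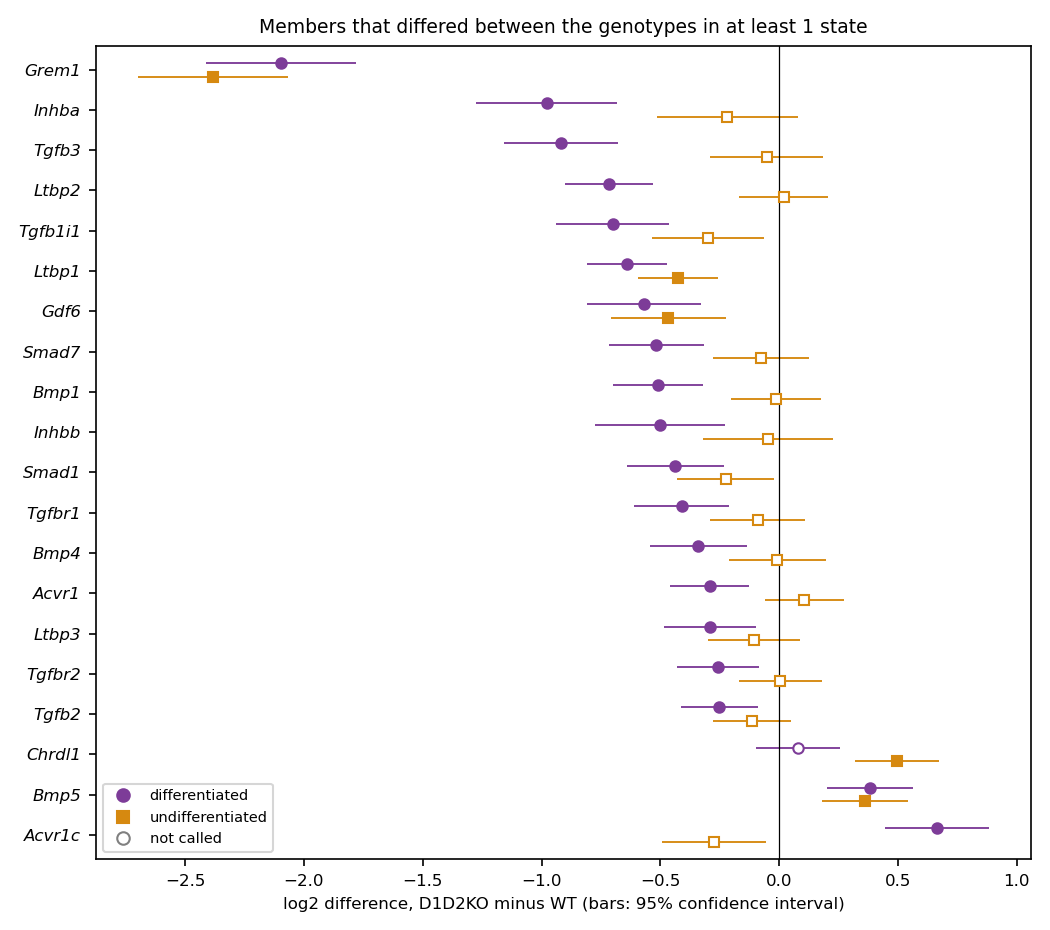
Difference between the genotypes, as log2 D1D2KO minus WT with its 95% confidence interval, for the 19 genes called in differentiated cells (circles) and for Chrdl1, called in undifferentiated cells alone (squares show undifferentiated cells, open symbols are not called). Grem1 lies furthest left in both states, and most other genes lie nearer 0 in undifferentiated than in differentiated cells.

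The 3 TGF-beta ligand genes fell with differentiation in both genotypes, where 21.2% of all genes fell in D1D2KO and 19.4% in WT cells, and Tgfb3 fell further in D1D2KO cells. Tgfb3 encodes the ligand TGF-beta 3. In D1D2KO cells Tgfb3 had 7.95, 7.98 and 7.51 after differentiation and 9.38, 9.53 and 9.27 before it, and in WT cells it had 8.75, 8.68 and 8.75 after and 9.44, 9.54 and 9.36 before. The undifferentiated samples of the genotypes overlapped, while every differentiated D1D2KO sample lay below every differentiated WT sample. Tgfb3 fell by 1.58 (SE 0.11, a factor of 3.00) in D1D2KO and by 0.72 (SE 0.11) in WT cells (limma, Benjamini-Hochberg adjusted p = 4.85e-09 and 7.23e-05). The difference between these responses was -0.86 (SE 0.16, adjusted p = 0.0107), and after differentiation it was lower in D1D2KO than WT cells (-0.92, SE 0.11, adjusted p = 6.16e-05). Tgfb2, which encodes TGF-beta 2, had 6.45, 6.38 and 6.40 in differentiated and 7.14, 7.15 and 7.17 in undifferentiated D1D2KO cells, and 6.68, 6.58 and 6.72 in differentiated and 7.36, 7.27 and 7.17 in undifferentiated WT cells. The states did not overlap in either genotype, and it fell by 0.74 (SE 0.08) in D1D2KO and 0.60 (SE 0.08) in WT cells. Tgfb1, which encodes TGF-beta 1, fell by 0.59 (SE 0.11) in D1D2KO cells and by 0.35 (SE 0.11, adjusted p = 0.0173) in WT cells. The WT call of Tgfb1 ended without WT undifferentiated replicate 2 or WT differentiated replicate 1 or 3 (adjusted p from 0.0680 to 0.0784).

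The 2 activin subunit genes moved in opposite directions. Inhba encodes the beta A subunit of activin A, and Inhbb the beta B subunit of activin B. Inhba had 6.69, 6.79 and 7.09 in differentiated and 8.29, 8.45 and 8.13 in undifferentiated D1D2KO cells, and 7.62, 8.20 and 7.67 in differentiated and 8.49, 8.64 and 8.40 in undifferentiated WT cells. Differentiated samples lay below undifferentiated ones in each genotype, and among differentiated samples all of D1D2KO lay below all of WT. Inhba fell by 1.44 (SE 0.14, a factor of 2.71) in D1D2KO and by 0.68 (SE 0.14) in WT cells (limma, adjusted p = 2.66e-07 and 0.00109), and after differentiation it was lower in D1D2KO than in WT cells (-0.98, SE 0.14, adjusted p = 0.000279). Its difference between the responses, -0.76 (SE 0.20), missed the threshold (adjusted p = 0.0727), and passed it with genes above the median signal, a trended variance, array weights or without D1D2KO differentiated replicate 3 (adjusted p from 0.0158 to 0.0371). Inhbb had 5.96, 6.40 and 6.44 in differentiated and 5.85, 5.89 and 5.71 in undifferentiated D1D2KO cells, and 6.64, 7.03 and 6.64 in differentiated and 5.90, 5.97 and 5.73 in undifferentiated WT cells. The 3 differentiated D1D2KO samples lay above the undifferentiated D1D2KO samples and below the differentiated WT samples. Inhbb rose by 0.45 (SE 0.13, adjusted p = 0.0100) in D1D2KO cells, a call that ended without D1D2KO differentiated replicate 3 (adjusted p = 0.0577), and by 0.90 (SE 0.13, adjusted p = 2.72e-05) in WT cells. The difference between these responses was -0.45 (95% interval -0.84 to -0.07) and was not called (adjusted p = 0.322).

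Of 10 genes with a Bmp ligand symbol 5 fell in D1D2KO cells, and 4 fell and 1 rose in WT cells, against 36.7% and 34.1% of all genes called. Bmp4, a BMP known to commit mesenchymal stem cells to the adipocyte lineage, had 6.74, 6.76 and 6.76 in differentiated and 8.01, 8.05 and 7.98 in undifferentiated D1D2KO cells, and 6.99, 7.35 and 6.94 in differentiated and 8.07, 8.06 and 7.93 in undifferentiated WT cells. The states were far apart in both genotypes, and the undifferentiated samples of the genotypes overlapped. Bmp4 fell by 1.26 (SE 0.10, a factor of 2.40) in D1D2KO and 0.93 (SE 0.10, a factor of 1.91) in WT cells (limma, adjusted p = 1.32e-08 and 8.22e-07). Bmp5 was called higher in D1D2KO cells in both states, with 4.89, 4.81 and 4.70 in differentiated D1D2KO cells against 4.32, 4.45 and 4.50 in differentiated WT cells, and 5.58, 5.40 and 5.39 in undifferentiated D1D2KO cells against 5.05, 5.08 and 5.14 in undifferentiated WT cells. These low signals did not overlap between the genotypes in either state, and 2 of the 12 lay under the lower quartile of their array. The difference of Bmp5 was 0.38 (SE 0.09, adjusted p = 0.00876) after and 0.36 (SE 0.09, adjusted p = 0.0198) before differentiation, and it fell with differentiation by 0.66 (SE 0.09) in D1D2KO and 0.67 (SE 0.09) in WT cells. The undifferentiated call ended without WT undifferentiated replicate 1 or 2 or D1D2KO undifferentiated replicate 1 (adjusted p from 0.0764 to 0.0898), and quantile normalization ended it too (adjusted p = 0.0822). Bmp3, which encodes a ligand that opposes other BMPs, fell by 0.47 (SE 0.11) in D1D2KO and 0.52 (SE 0.11) in WT cells. Bmp2, which encodes a bone-inducing BMP, fell by 0.67 (SE 0.13) in D1D2KO and 0.42 (SE 0.13, adjusted p = 0.0157) in WT cells, a WT call that ended without WT undifferentiated replicate 1 or WT differentiated replicate 3 (adjusted p 0.0987 and 0.0957, in that order). Bmp6, known in the liver for the control of iron, fell by 0.51 (SE 0.08) in D1D2KO cells, while its difference of -0.17 (SE 0.08) in WT cells was not called.

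The remaining Bmp symbols gave small or uncalled differences. Bmp7, a BMP known for brown fat formation, differed by -0.08 in D1D2KO and 0.17 in WT cells, Bmp8a by -0.07 and 0.05, and Bmp8b by -0.09 and -0.01, none of them called. Bmp8a and Bmp8b are close paralogues whose signals an array may not separate. Bmp10 and Bmp15, known from the heart and the ovary, lay under the lower quartile of signals, 4.41 to 4.68 depending on the array, on all 12 arrays, and cannot be told from background. Bmp10 had 3.54, 3.45 and 3.41 in differentiated and 3.44, 3.38 and 3.66 in undifferentiated D1D2KO cells, and 3.69, 3.38 and 3.61 in differentiated and 3.14, 3.22 and 3.33 in undifferentiated WT cells. Its WT difference, 0.33 (SE 0.10, adjusted p = 0.0139), was called at that level, and the call ended without WT undifferentiated replicate 1 or WT differentiated replicate 1 (adjusted p 0.0674 and 0.0680).

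Among 8 growth and differentiation factor (GDF) genes, Gdf10, Gdf6 and Gdf11 fell in both genotypes and the other 5 were not called. The share called, 37.5%, is near that of all genes (36.7% in D1D2KO and 34.1% in WT cells). Gdf10 encodes a ligand related to Bmp3. It had 7.40, 7.44 and 7.52 in differentiated and 8.42, 8.38 and 8.50 in undifferentiated D1D2KO cells, and 7.56, 7.62 and 7.45 in differentiated and 8.57, 8.35 and 8.36 in undifferentiated WT cells. The states were separate and the genotypes overlapped in each state, and Gdf10 fell by 0.98 (SE 0.08) in D1D2KO and 0.89 (SE 0.08) in WT cells (limma, adjusted p = 5.89e-08 and 2.88e-07). Gdf6, known for joint and skull formation, had 5.53, 5.60 and 5.93 in differentiated D1D2KO cells against 6.28, 6.23 and 6.26 in differentiated WT cells, and 6.46, 6.52 and 6.45 in undifferentiated D1D2KO cells against 6.91, 7.19 and 6.73 in undifferentiated WT cells. D1D2KO samples lay below WT samples in both states. The difference was -0.57 (SE 0.11, adjusted p = 0.00422) after and -0.47 (SE 0.11, adjusted p = 0.0232) before differentiation, and Gdf6 fell with differentiation by 0.79 (SE 0.11) in D1D2KO and 0.69 (SE 0.11) in WT cells. Its undifferentiated call ended without WT undifferentiated replicate 1 or 2 or D1D2KO undifferentiated replicate 1 or 3 (adjusted p from 0.0636 to 0.136). Gdf11, which encodes a ligand related to myostatin, fell by 0.67 (SE 0.15) in D1D2KO and 0.57 (SE 0.15) in WT cells. For Gdf2, Gdf3, Gdf5, Gdf7 and Gdf9 the differences with differentiation ran from -0.09 for Gdf7 to 0.29 for Gdf2 in D1D2KO cells and from -0.15 for Gdf7 to 0.19 for Gdf9 in WT cells, and none was called.

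Acvr1c, which encodes the type I receptor ALK7, had the largest change with differentiation among the 56 genes in both genotypes. Acvr1c had 9.29, 9.39 and 9.44 in differentiated and 4.04, 3.94 and 3.87 in undifferentiated D1D2KO cells, and 8.48, 8.78 and 8.86 in differentiated and 4.12, 4.38 and 4.17 in undifferentiated WT cells. All 6 undifferentiated samples lay under the lower quartile of their array, so the fold changes start from a level that cannot be told from background. The D1D2KO samples all lay above the WT samples after differentiation and all below them before it. Acvr1c rose by 5.42 (SE 0.10, 42.8-fold) in D1D2KO and by 4.48 (SE 0.10, 22.4-fold) in WT cells (limma, adjusted p = 7.23e-16 and 6.18e-15). The difference between the responses was 0.94 (SE 0.15, adjusted p = 0.00410). In differentiated cells it was 0.66 (SE 0.10) higher in D1D2KO than in WT cells (adjusted p = 0.000556), and in undifferentiated cells the difference of -0.27 (SE 0.10) was not called (adjusted p = 0.106). Adipocyte markers were likewise higher in D1D2KO differentiated cells, 6 of 9 by the same test with a median of 0.41 over the 9, and the part of that shift in the result was not tested.

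Of 7 type I receptor genes 5 fell and 1 rose in D1D2KO cells, and 4 fell and 2 rose in WT cells. The share called was 85.7% in each genotype, against 36.7% of all genes in D1D2KO and 34.1% in WT cells. Bmpr1a encodes the BMP receptor ALK3. It had 8.90, 9.06 and 8.89 in differentiated and 9.77, 9.59 and 9.71 in undifferentiated D1D2KO cells, and 9.05, 9.15 and 9.09 in differentiated and 9.94, 9.91 and 9.95 in undifferentiated WT cells. The states did not overlap in either genotype, and Bmpr1a fell by 0.74 (SE 0.08) in D1D2KO and 0.84 (SE 0.08) in WT cells (limma, adjusted p = 8.41e-07 and 2.60e-07). Between undifferentiated D1D2KO and WT cells its difference of -0.24 was not called. It passed the threshold with median centring, genes above the median signal, a trended variance, array weights or only the 2 groups fitted (limma, adjusted p from 0.0239 to 0.0474). Tgfbr1, which encodes the TGF-beta receptor ALK5, had 7.65, 7.58 and 7.37 in differentiated and 8.58, 8.45 and 8.44 in undifferentiated D1D2KO cells, and 7.91, 8.10 and 7.82 in differentiated and 8.67, 8.53 and 8.54 in undifferentiated WT cells. Here too the states were apart, and differentiated D1D2KO samples lay below differentiated WT samples. Tgfbr1 fell by 0.95 (SE 0.09) in D1D2KO and 0.64 (SE 0.09) in WT cells. Bmpr1b, which encodes ALK6, had 4.07, 4.12 and 3.77 in differentiated and 4.89, 4.85 and 4.75 in undifferentiated D1D2KO cells, and 4.10, 3.91 and 4.32 in differentiated and 4.88, 4.99 and 4.67 in undifferentiated WT cells. It fell by 0.84 (SE 0.12) in D1D2KO and 0.73 (SE 0.12) in WT cells, to signals under the lower quartile of the array in the 6 differentiated samples. Acvr1, which encodes ALK2, fell by 0.76 (SE 0.08) in D1D2KO and 0.36 (SE 0.08) in WT cells. Acvr1b, which encodes the activin receptor ALK4, had 7.45, 7.23 and 7.22 in differentiated and 6.97, 7.22 and 7.04 in undifferentiated D1D2KO cells, and 7.43, 7.52 and 7.49 in differentiated and 7.32, 7.08 and 7.10 in undifferentiated WT cells. Its differences were 0.22 (SE 0.10, not called) in D1D2KO and 0.31 (SE 0.10, adjusted p = 0.0168) in WT cells, and the WT call ended without WT undifferentiated replicate 2 or 3 (adjusted p 0.0772 and 0.0614, in that order). Acvrl1, which encodes the endothelial receptor ALK1, was called lower in D1D2KO cells (-0.21, SE 0.08, adjusted p = 0.0485) and not in WT cells (-0.10, SE 0.08). That call ended without any 1 of the 6 undifferentiated samples of WT or D1D2KO cells, without D1D2KO differentiated replicate 1 or 3 (adjusted p from 0.0592 to 0.143). It also ended with the replicate number as a block (adjusted p = 0.0557), median centring (0.0728), quantile normalization (0.0974) and only the 2 groups fitted (0.0543).

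Of 5 type II and co-receptor genes, Tgfbr2, Bmpr2 and Acvr2a fell, Acvr2b rose and Tgfbr3 was not called, in each genotype. The share called was 80% in each, against 36.7% of all genes in D1D2KO and 34.1% in WT cells. Tgfbr2 encodes the type II receptor that binds TGF-beta. It had 8.51, 8.45 and 8.32 in differentiated and 9.56, 9.51 and 9.61 in undifferentiated D1D2KO cells, and 8.73, 8.58 and 8.74 in differentiated and 9.63, 9.53 and 9.51 in undifferentiated WT cells. The states were separate in both genotypes, and Tgfbr2 fell by 1.13 (SE 0.08, a factor of 2.19) in D1D2KO and 0.87 (SE 0.08, a factor of 1.83) in WT cells (limma, adjusted p = 6.18e-09 and 2.40e-07). Bmpr2, which encodes the type II BMP receptor, fell by 0.79 (SE 0.09) in D1D2KO and 0.55 (SE 0.09) in WT cells, and the activin receptor gene Acvr2a fell by 0.51 (SE 0.08) and 0.49 (SE 0.08). Acvr2b, which encodes the other type II activin receptor, had 5.85, 5.79 and 5.91 in differentiated and 5.57, 5.40 and 5.20 in undifferentiated D1D2KO cells, and 5.78, 5.60 and 5.56 in differentiated and 5.23, 5.21 and 5.35 in undifferentiated WT cells. Differentiated samples lay above undifferentiated ones in each genotype, with a rise of 0.46 (SE 0.10, adjusted p = 0.000974) in D1D2KO and 0.38 (SE 0.10, adjusted p = 0.00485) in WT cells. Tgfbr3, which encodes the co-receptor betaglycan, had 9.30, 9.19 and 8.96 in differentiated and 9.35, 9.19 and 9.32 in undifferentiated D1D2KO cells, and 9.38, 9.38 and 9.27 in differentiated and 9.52, 9.35 and 9.34 in undifferentiated WT cells. Its samples overlapped in every comparison of states, and its differences were -0.14 (95% interval -0.34 to 0.06) in D1D2KO and -0.06 (95% interval -0.26 to 0.14) in WT cells.

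**Figure D3:**
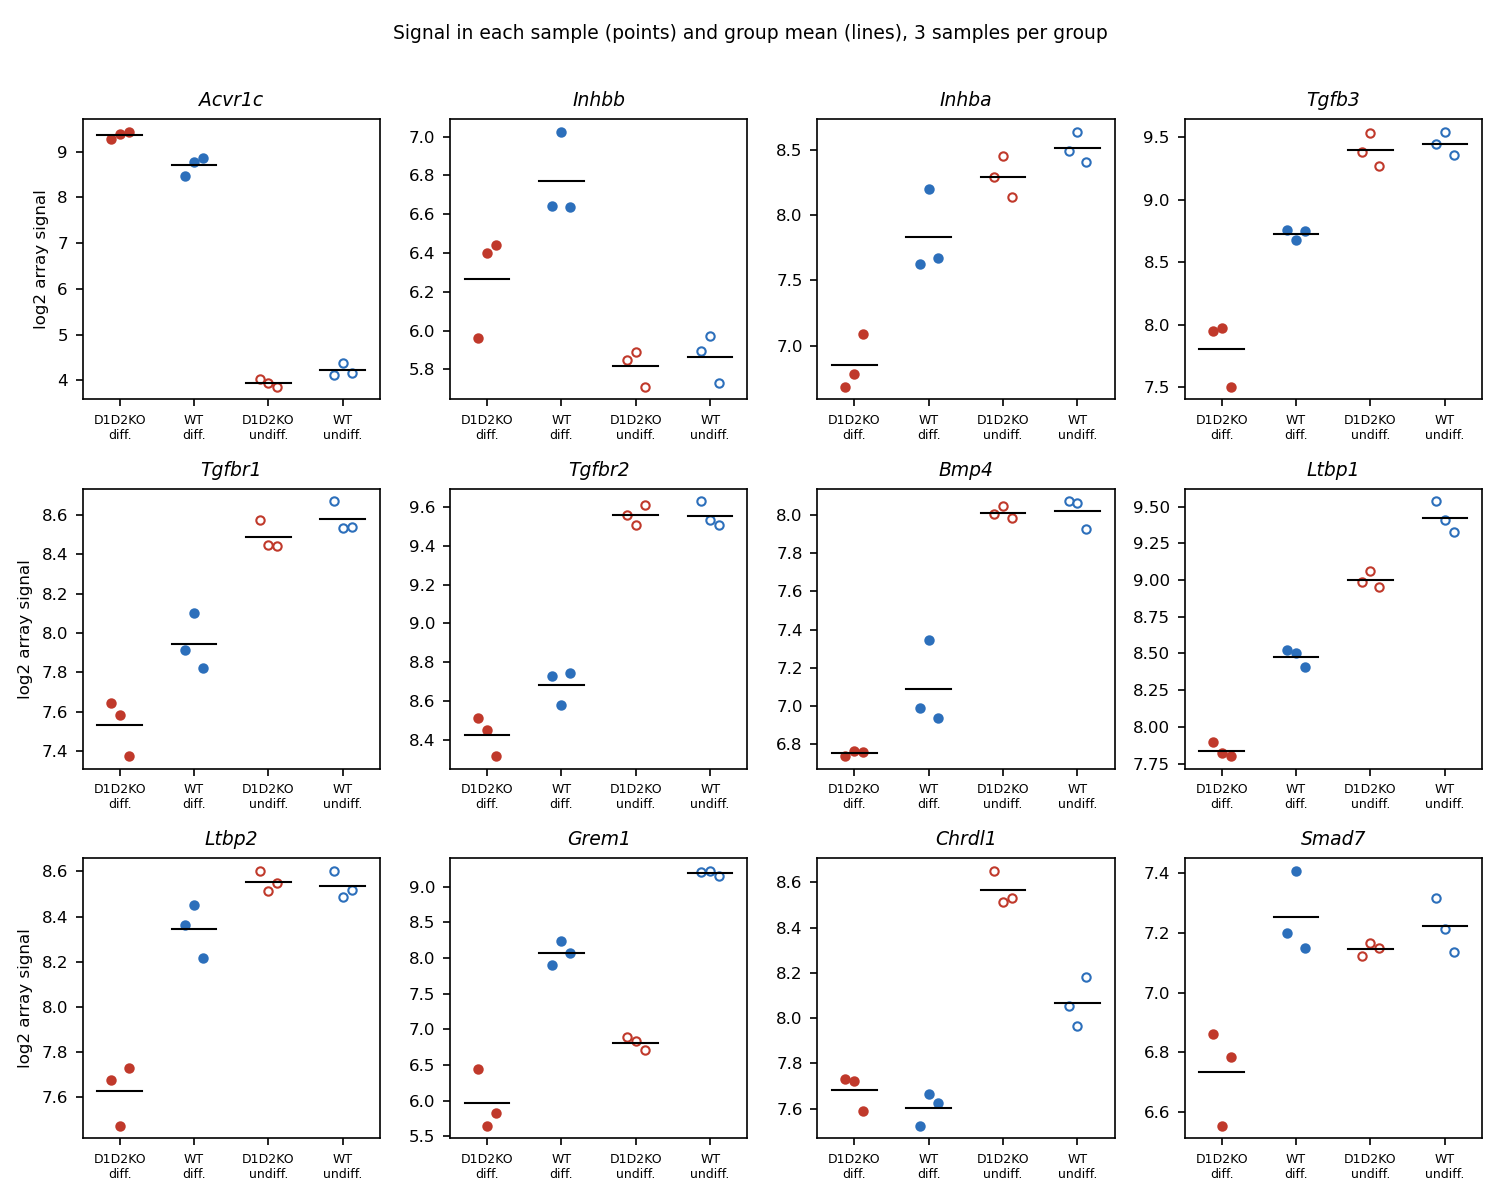
Log2 array signal (vertical axis, its own scale for each gene) of 12 of the genes in each sample (points) with the group mean (line), for D1D2KO and WT differentiated cells (filled) and D1D2KO and WT undifferentiated cells (open). Acvr1c and Inhbb are higher in differentiated cells, Grem1 is lower in D1D2KO cells in both states, and Tgfb3, Inhba and Ltbp2 are lowest in differentiated D1D2KO cells.

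Of 8 SMAD genes 5 fell in D1D2KO cells (62.5%, where 21.2% of all genes fell) and 2 in WT cells (25%, near the 19.4% of all genes that fell), and the differences of the 8 ran from -0.55 to -0.07 in D1D2KO and from -0.50 to 0.03 in WT cells. Smad5, which carries BMP signals, fell by 0.55 (SE 0.08) in D1D2KO and 0.50 (SE 0.08) in WT cells (limma, adjusted p = 4.35e-05 and 0.000155). Smad7 encodes an inhibitory SMAD that TGF-beta itself induces. It had 6.86, 6.56 and 6.78 in differentiated D1D2KO cells against 7.20, 7.41 and 7.15 in differentiated WT cells, and 7.12, 7.17 and 7.15 in undifferentiated D1D2KO cells against 7.32, 7.21 and 7.13 in undifferentiated WT cells. Only the differentiated D1D2KO samples stood apart, below all other samples. Smad7 was lower in differentiated D1D2KO than WT cells (-0.52, SE 0.09, adjusted p = 0.00209) and fell by 0.41 (SE 0.09) in D1D2KO cells, against a difference of 0.03 (SE 0.09) in WT cells. The difference between these responses was -0.44 (95% interval -0.72 to -0.16) and was not called (adjusted p = 0.134), except with array weights (adjusted p = 0.0394). Smad1, which carries BMP signals, had 6.55, 6.53 and 6.71 in differentiated D1D2KO cells against 6.96, 7.24 and 6.90 in differentiated WT cells, without overlap. It was lower in D1D2KO cells after differentiation (-0.44, SE 0.10, adjusted p = 0.00821). Undifferentiated D1D2KO cells, with 6.88, 6.92 and 6.86, also lay below undifferentiated WT cells, with 7.18, 7.18 and 6.97. That difference of -0.22 was not called, except with array weights (limma, adjusted p = 0.0350).

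The common mediator gene Smad4 fell by 0.41 (SE 0.08) in D1D2KO cells, while its difference of -0.19 (SE 0.08) in WT cells was not called (limma, adjusted p = 0.0758). The WT difference of Smad4 was called with quantile normalization, genes above the median signal, a trended variance or without D1D2KO differentiated replicate 3 (limma, adjusted p from 0.0358 to 0.0434). The fall of Smad1 in D1D2KO cells, 0.29 (SE 0.10, adjusted p = 0.0256), ended as a call without any 1 of the 3 undifferentiated D1D2KO samples or D1D2KO differentiated replicate 1 or 2 (adjusted p from 0.0513 to 0.0891). Smad3, which carries TGF-beta and activin signals, fell by 0.42 (SE 0.08) in D1D2KO and by 0.26 (SE 0.08, adjusted p = 0.0160) in WT cells, and the WT call ended without WT undifferentiated replicate 1 or WT differentiated replicate 1 (adjusted p 0.0640 and 0.0558, in that order). Smad2, which carries the same signals, had 8.05, 8.15 and 8.14 in differentiated and 8.29, 8.25 and 8.31 in undifferentiated D1D2KO cells, and 7.97, 8.32 and 8.16 in differentiated and 8.26, 8.31 and 8.36 in undifferentiated WT cells. The differences of Smad2 were -0.17 (95% interval -0.36 to 0.01) in D1D2KO and -0.16 (95% interval -0.35 to 0.02) in WT cells and were not called. Smad9, which carries BMP signals, differed by -0.15 (SE 0.11) in D1D2KO and -0.25 (SE 0.11) in WT cells, and the inhibitory Smad6 by -0.07 (SE 0.08) and -0.10 (SE 0.08), and neither was called in any comparison.

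Grem1, which encodes the secreted BMP antagonist gremlin 1, had the largest difference between the genotypes among the 56 genes. Grem1 had 6.45, 5.65 and 5.83 in differentiated D1D2KO cells against 7.90, 8.24 and 8.07 in differentiated WT cells, and 6.89, 6.84 and 6.71 in undifferentiated D1D2KO cells against 9.21, 9.23 and 9.15 in undifferentiated WT cells. Every D1D2KO sample, in either state, lay below every WT sample of either state, and the 3 differentiated D1D2KO samples had the widest spread. The difference was -2.10 (SE 0.15, 4.28 times lower in D1D2KO) after and -2.38 (SE 0.15, 5.21 times lower) before differentiation (limma, adjusted p = 1.71e-07 and 3.73e-08). Grem1 also fell with differentiation, by 0.84 (SE 0.15) in D1D2KO and 1.12 (SE 0.15) in WT cells, and these responses were not shown to differ (0.29, 95% interval -0.16 to 0.73, adjusted p = 0.714). The smooth muscle markers were also lower in D1D2KO cells, with median differences over the 6 of -2.39 after and -1.48 before differentiation. The part of these markers in the result was not tested. Chrdl1, which encodes the chordin-like BMP antagonist 1, had 7.73, 7.72 and 7.59 in differentiated D1D2KO cells against 7.52, 7.66 and 7.62 in differentiated WT cells, and 8.65, 8.51 and 8.53 in undifferentiated D1D2KO cells against 8.05, 7.97 and 8.18 in undifferentiated WT cells. The genotypes were separate in undifferentiated cells and overlapped in differentiated cells. Chrdl1 was higher in undifferentiated D1D2KO cells (0.50, SE 0.08, adjusted p = 0.00239) and differed by 0.08 (SE 0.08) in differentiated cells, and it fell with differentiation by 0.88 (SE 0.08) in D1D2KO and 0.46 (SE 0.08) in WT cells.

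Of the other antagonists, noggin (Nog) had differences of 0.05 (SE 0.08) with differentiation in D1D2KO and -0.07 (SE 0.08) in WT cells, and Chrdl2 had 0.06 (SE 0.12) and -0.17 (SE 0.12), none of them called. Chordin (Chrd) had 5.76, 5.66 and 5.75 in differentiated and 5.65, 5.72 and 5.67 in undifferentiated D1D2KO cells, and 5.92, 5.80 and 5.67 in differentiated and 5.52, 5.57 and 5.54 in undifferentiated WT cells. The states overlapped in D1D2KO cells and were separate in WT cells, where Chrd differed by 0.25 (SE 0.08; limma, adjusted p = 0.0199), a call that ended without WT undifferentiated replicate 1 or WT differentiated replicate 1 (adjusted p 0.0656 and 0.0949). A fit of only the 2 groups ended that call too (adjusted p = 0.0504).

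Of 4 latent TGF-beta binding protein genes, 3 fell in D1D2KO cells (Ltbp1, Ltbp2 and Ltbp4) and 2 in WT cells (Ltbp1 and Ltbp4), and 3 were lower in differentiated D1D2KO than WT cells (Ltbp1, Ltbp2 and Ltbp3). Of all genes 21.2% fell in D1D2KO and 19.4% in WT cells, and 7.42% were lower in differentiated D1D2KO cells. Ltbp1 encodes a protein that anchors latent TGF-beta in the matrix. It had 7.90, 7.82 and 7.80 in differentiated D1D2KO cells against 8.53, 8.50 and 8.41 in differentiated WT cells, and 8.98, 9.06 and 8.95 in undifferentiated D1D2KO cells against 9.54, 9.41 and 9.33 in undifferentiated WT cells. All 4 groups were separate from one another. Ltbp1 fell by 1.16 (SE 0.08, a factor of 2.24) in D1D2KO and 0.95 (SE 0.08, a factor of 1.93) in WT cells, and D1D2KO differed from WT cells by -0.64 (SE 0.08) after and -0.43 (SE 0.08) before differentiation (limma, adjusted p = 7.08e-05 and 0.00530). Ltbp2 encodes a microfibril protein of the same family that does not bind latent TGF-beta. It had 7.68, 7.47 and 7.73 in differentiated D1D2KO cells against 8.36, 8.45 and 8.22 in differentiated WT cells, and 8.60, 8.51 and 8.55 in undifferentiated D1D2KO cells against 8.60, 8.49 and 8.52 in undifferentiated WT cells. Undifferentiated samples of the genotypes overlapped, and the differentiated D1D2KO samples stood apart below all others. Ltbp2 fell by 0.93 (SE 0.09) in D1D2KO cells, and its difference in WT cells was -0.19 (SE 0.09, adjusted p = 0.105). The difference between the responses was -0.74 (SE 0.12, adjusted p = 0.00645), and after differentiation Ltbp2 was lower in D1D2KO than WT cells (-0.72, SE 0.09, adjusted p = 6.16e-05). Ltbp4, known for elastic fibre assembly, fell by 0.40 (SE 0.09) in D1D2KO and 0.55 (SE 0.09) in WT cells. Ltbp3 had 8.95, 8.77 and 8.74 in differentiated D1D2KO cells against 9.10, 9.21 and 9.01 in differentiated WT cells and differed with differentiation by -0.13 (SE 0.09) in D1D2KO and 0.06 (SE 0.09) in WT cells, neither of them called.

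The 4 genes matched by symbol alone fell in D1D2KO cells, and 3 of them in WT cells, where 21.2% and 19.4% of all genes fell. Bmp1, whose protease cleaves procollagens and chordin, had 8.28, 8.24 and 8.32 in differentiated and 9.26, 9.24 and 9.32 in undifferentiated D1D2KO cells, and 8.78, 8.98 and 8.62 in differentiated and 9.36, 9.24 and 9.26 in undifferentiated WT cells. The undifferentiated genotypes overlapped and the differentiated ones did not. Bmp1 fell by 0.99 (SE 0.09) in D1D2KO and 0.50 (SE 0.09) in WT cells and was lower in differentiated D1D2KO than WT cells (-0.51, SE 0.09; limma, adjusted p = 0.00152). The difference between the responses of Bmp1 was -0.50 (SE 0.13) and missed the threshold (adjusted p = 0.0660), and passed it with genes above the median signal, a trended variance, array weights or without WT differentiated replicate 3 (adjusted p from 0.0191 to 0.0314). Tgfb1i1 had 6.72, 6.73 and 6.91 in differentiated and 7.77, 7.82 and 7.77 in undifferentiated D1D2KO cells, and 7.42, 7.79 and 7.25 in differentiated and 8.17, 8.10 and 7.99 in undifferentiated WT cells. It encodes Hic-5, an adaptor that TGF-beta induces, and its D1D2KO samples lay below the WT samples in each state. Tgfb1i1 fell by 1.00 (SE 0.11) in D1D2KO and 0.60 (SE 0.11) in WT cells and was lower in differentiated D1D2KO than WT cells (-0.70, SE 0.11, adjusted p = 0.000695). Tgfbrap1 fell by 0.42 (SE 0.10) in D1D2KO and 0.56 (SE 0.10) in WT cells. Bmp2k, an adaptor-associated kinase gene, was called lower in D1D2KO cells (-0.36, SE 0.13, adjusted p = 0.0342), a call that ended without any 1 of the 3 undifferentiated D1D2KO samples or D1D2KO differentiated replicate 1 or 2 (adjusted p from 0.0635 to 0.186), and differed by -0.29 (SE 0.13) in WT cells. Quantile normalization also ended the D1D2KO call of Bmp2k (adjusted p = 0.0687).

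Of the 19 calls between differentiated D1D2KO and WT cells, 12 held under each of the 21 alternative fits that kept the gene and 7 did not. The 12 were Acvr1c, Bmp5, Grem1, Inhba, Tgfb3, Ltbp1, Ltbp2, Tgfb1i1, Gdf6, Smad1, Smad7 and Bmp1, of which Bmp5 was left out by the filter on signal and so rests on 20 fits. Quantile normalization ended the calls of Acvr1, Bmp4, Ltbp3, Tgfb2 and Tgfbr2, and a fit of only the 2 groups ended those and that of Inhbb. For Bmp4 the difference was -0.34 (SE 0.10; limma, adjusted p = 0.0305), and the call ended without WT differentiated replicate 2 or any 1 of the 3 differentiated D1D2KO samples (adjusted p from 0.0634 to 0.122). Inhbb was lower in D1D2KO cells (-0.50, SE 0.13, adjusted p = 0.0185), until WT differentiated replicate 2 (adjusted p = 0.0941) or D1D2KO differentiated replicate 1 (adjusted p = 0.0750) was left out. The difference of Acvr1 was -0.29 (SE 0.08, adjusted p = 0.0236), with 6.89, 6.92 and 6.86 in D1D2KO against 7.22, 7.21 and 7.10 in WT cells, and its call ended without WT differentiated replicate 1 or 2 or D1D2KO differentiated replicate 1 or 3 (adjusted p from 0.0516 to 0.0683). That of Tgfbr1 was -0.41 (SE 0.09, adjusted p = 0.0103) and ended as a call without WT differentiated replicate 2 (adjusted p = 0.0519). Tgfb2 (-0.25, SE 0.08, adjusted p = 0.0408), Tgfbr2 (-0.26, SE 0.08, adjusted p = 0.0470) and Ltbp3 (-0.29, SE 0.09, adjusted p = 0.0448) lay near the threshold. The call of Tgfb2 held without WT differentiated replicate 2 or WT undifferentiated replicate 1 or 3 and ended without any 1 of the other 9 samples (adjusted p from 0.0529 to 0.103). The call of Tgfbr2 held without WT differentiated replicate 2 or D1D2KO differentiated replicate 1 and ended without any 1 of the other 10 (adjusted p from 0.0550 to 0.141). The call of Ltbp3 ended without WT undifferentiated replicate 2, WT differentiated replicate 1 or 2, D1D2KO differentiated replicate 2 or 3, or any undifferentiated D1D2KO sample (adjusted p from 0.0554 to 0.152). For the 7 genes every differentiated D1D2KO sample lay below every differentiated WT sample, as for 14.2% of all genes. The calls rest on the same values, so this adds no separate support. The 3 calls of a difference between the responses, Acvr1c, Tgfb3 and Ltbp2, held in each of 20 alternative fits.

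Genes of secreted and membrane proteins that modulate the pathway, but do not carry its symbols, mostly fell where they were called. Of 40 measured, 1 rose and 21 fell in D1D2KO cells and 2 rose and 20 fell in WT cells, where 21.2% and 19.4% of all genes fell. Between the genotypes 1 was higher and 14 were lower in differentiated D1D2KO cells (37.5% called, against 13.7% of all genes), and 3 were higher and 2 lower in undifferentiated D1D2KO cells (12.5%, against 8.02%), a count of 5 that was 1 without WT undifferentiated replicate 2 or D1D2KO undifferentiated replicate 1 or 3. The median difference of the list was -0.41 in D1D2KO and -0.22 in WT cells with differentiation. Fmod, whose collagen-binding proteoglycan fibromodulin also binds TGF-beta, fell by 1.87 (SE 0.08) in D1D2KO and 1.37 (SE 0.08) in WT cells, and Tmeff2, a shed membrane protein gene, fell by 1.69 (SE 0.10) and 1.41 (SE 0.10). Tll1, whose tolloid-like protease cleaves chordin, fell by 2.06 (SE 0.09) in D1D2KO and 1.03 (SE 0.09) in WT cells, and Nbl1, a secreted BMP antagonist gene, by 1.43 (SE 0.10) and 1.10 (SE 0.10). Of the list, 4 responses differed between the genotypes (10%, against 1.46% of all genes), and all 4 were more negative in D1D2KO cells (0.712% of all genes). They were those of Tll1 (-1.04, SE 0.13; limma, adjusted p = 0.000501), Crim1, a membrane protein gene of BMP binding (-0.62, SE 0.12, adjusted p = 0.0151), Thbs1, whose thrombospondin 1 activates latent TGF-beta (-0.55, SE 0.11, adjusted p = 0.0152), and Fmod (-0.50, SE 0.12, adjusted p = 0.0454). The count of 4 was 2 without D1D2KO undifferentiated replicate 1, where the call of Thbs1 ended (adjusted p = 0.0537), and the call of Fmod held only without WT differentiated replicate 3 among the 12 runs that left out a sample (adjusted p from 0.0592 to 0.117 in the other 11). The call of Fmod also ended with the replicate number as a block (adjusted p = 0.0534) and with median centring (adjusted p = 0.0507). In differentiated cells Lrrc32, whose product GARP holds latent TGF-beta on the cell surface, was lower in D1D2KO than WT cells (-0.95, SE 0.11, adjusted p = 3.44e-05), as was the activin-binding follistatin gene Fst (-0.65, SE 0.12, adjusted p = 0.00211).

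Intracellular regulators of SMAD signalling changed with differentiation in both directions. Of 24 measured, 4 rose and 13 fell in D1D2KO cells (70.8% called, against 36.7% of all genes) and 4 rose and 11 fell in WT cells (62.5%, against 34.1%). Tob1, an antiproliferative gene whose product binds BMP SMADs, rose by 2.16 (SE 0.10) in D1D2KO and 1.69 (SE 0.10) in WT cells (limma, adjusted p = 1.65e-11 and 5.81e-10). The SMAD corepressor gene Skil fell by 0.96 (SE 0.10) in D1D2KO and 0.72 (SE 0.10) in WT cells, and Pmepa1, which TGF-beta induces and whose product limits its signal, by 1.02 (SE 0.14) and 0.75 (SE 0.14). Between the genotypes 1 was higher and 2 were lower in differentiated D1D2KO cells (12.5%, near the 13.7% of all genes), among them Skil (-0.59, SE 0.10, adjusted p = 0.00140), a count of 3 that was 1 without WT differentiated replicate 2 and 5 without D1D2KO differentiated replicate 3. In undifferentiated cells Skil and Usp15 were called lower in D1D2KO cells (8.33%, against 8.02% of all genes), and both calls ended when any 1 of the 6 samples of that state was left out (adjusted p from 0.0609 to 0.191). By limma 0 of the 24 responses differed between the genotypes, with 4 at an unadjusted p under 0.05.

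Most genes that TGF-beta is known to induce or repress fell with differentiation, and 15 of 24 were lower in differentiated D1D2KO than WT cells. Of 24 measured, 3 rose and 19 fell in D1D2KO cells and 3 rose and 16 fell in WT cells, with medians of -0.83 and -0.38, where 21.2% and 19.4% of all genes fell. Between the genotypes 15 were lower and 0 higher in differentiated D1D2KO cells, where 7.42% of all genes were lower, and 4 were lower and 0 higher in undifferentiated D1D2KO cells, where 3.62% of all genes were lower. The count of 15 was 13 or 14 when any 1 sample was left out and 10 with only the 2 groups fitted. The call of Col1a1, a collagen gene, ended without any 1 of the 12 samples (adjusted p from 0.0508 to 0.109). Of the list 8 responses differed between the genotypes (33.3%, against 1.46% of all genes). All 8 were more negative in D1D2KO cells, where 0.712% of all genes were. The list shares 3 genes with the smooth muscle markers and 3 with the fibroblast markers, of which 6 of 6 and 5 of 10 were lower in differentiated D1D2KO than WT cells, and the part of those markers in the result was not tested. A count added after the planned ones left out the 3 shared smooth muscle genes. There 12 of 21 were lower in differentiated D1D2KO cells, against 7.42% of all genes. In undifferentiated D1D2KO cells 1 of 21 was lower, near the 3.62% of all genes, and 5 of 21 responses differed, against 1.46% of all genes. Leaving out 3 shared symbols cannot separate the list from the cells that those markers stand for. The matrix glycoprotein gene Tnc fell by 1.68 (SE 0.11) in D1D2KO and 0.47 (SE 0.11) in WT cells, a difference of -1.22 (SE 0.15; limma, adjusted p = 0.000762). For Ccn2, which encodes connective tissue growth factor, the responses were -1.72 (SE 0.13) and -0.68 (SE 0.13), a difference of -1.04 (SE 0.18, adjusted p = 0.00664). Tpm1, a tropomyosin gene, had -1.41 (SE 0.10) and -0.61 (SE 0.10), a difference of -0.79 (SE 0.13, adjusted p = 0.00660). The matricellular gene Ccn1 differed in response by -0.79 (SE 0.15, adjusted p = 0.0113) and the smooth muscle actin-binding gene Tagln by -0.77 (SE 0.12, adjusted p = 0.00410).

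The other 3 calls of that list ended when 1 sample was left out. The response of Timp1, a metalloprotease inhibitor gene, was -0.88 (SE 0.14) in D1D2KO and -0.02 (SE 0.14) in WT cells, a difference of -0.86 (SE 0.20; limma, adjusted p = 0.0390) whose call held without any 1 of the 3 differentiated WT samples and ended without any 1 of the other 9 (adjusted p from 0.0530 to 0.102). The smooth muscle genes Cnn1 (-0.79, SE 0.16, adjusted p = 0.0201) and Acta2 (-0.52, SE 0.11, adjusted p = 0.0218) lost their calls without WT undifferentiated replicate 1 or 3, D1D2KO undifferentiated replicate 1 or 2 or D1D2KO differentiated replicate 1, and also without WT differentiated replicate 2 for Cnn1 and D1D2KO differentiated replicate 2 for Acta2 (adjusted p from 0.0511 to 0.0733). Over the whole list that left 5 calls without WT undifferentiated replicate 1 or 3, D1D2KO undifferentiated replicate 1 or 2, or D1D2KO differentiated replicate 1. The gene that rose furthest was the transcriptional repressor Bhlhe40, by 1.65 (SE 0.15) in D1D2KO and 1.04 (SE 0.15) in WT cells. The uncalled Junb, an immediate early transcription factor gene, differed by 0.01 (SE 0.10) and 0.22 (SE 0.10).

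Genes known to respond to BMP gave a mixed picture. Of 18 measured, 0 rose and 8 fell in D1D2KO cells and 2 rose and 9 fell in WT cells, where the 11 calls were 7 without WT undifferentiated replicate 2. The shares called were 44.4% in D1D2KO and 61.1% in WT cells, against 36.7% and 34.1% of all genes. Hey2, a transcriptional repressor gene, fell by 1.25 (SE 0.10) in D1D2KO and 1.23 (SE 0.10) in WT cells (limma, adjusted p = 1.72e-08 and 3.36e-08). The inhibitors of helix-loop-helix transcription factors Id4 and Id3 fell by 1.03 (SE 0.09) and 0.89 (SE 0.10) in D1D2KO and by 0.72 (SE 0.09) and 0.37 (SE 0.10) in WT cells. Id1, known as a direct target of BMP SMADs, differed by 0.05 (SE 0.09) in D1D2KO and -0.07 (SE 0.09) in WT cells and was not called in any comparison. In differentiated D1D2KO cells Id3 (-0.59, SE 0.10, adjusted p = 0.000890), Id4 (-0.56, SE 0.09, adjusted p = 0.000720) and Id2 (-0.41, SE 0.09, adjusted p = 0.00959) were lower than in WT cells. Hey1 (0.34, SE 0.08, adjusted p = 0.0145) and Tbx20 (0.34, SE 0.09, adjusted p = 0.0208) were higher, calls that ended without WT differentiated replicate 2 for Hey1 (adjusted p = 0.0509) and without WT differentiated replicate 3 or D1D2KO differentiated replicate 1 for Tbx20 (adjusted p 0.0564 and 0.0803). A fit of only the 2 groups ended both calls, and quantile normalization ended that of Tbx20 (adjusted p from 0.0575 to 0.0816). By limma 0 of the 18 differed between undifferentiated D1D2KO and WT cells and 0 in response, with 9 and 3 at an unadjusted p under 0.05, and leaving out 1 sample gave up to 2 calls in each (without WT undifferentiated replicate 3 or WT differentiated replicate 2 for the genotypes, without WT differentiated replicate 3 for the response).

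**Figure D4:**
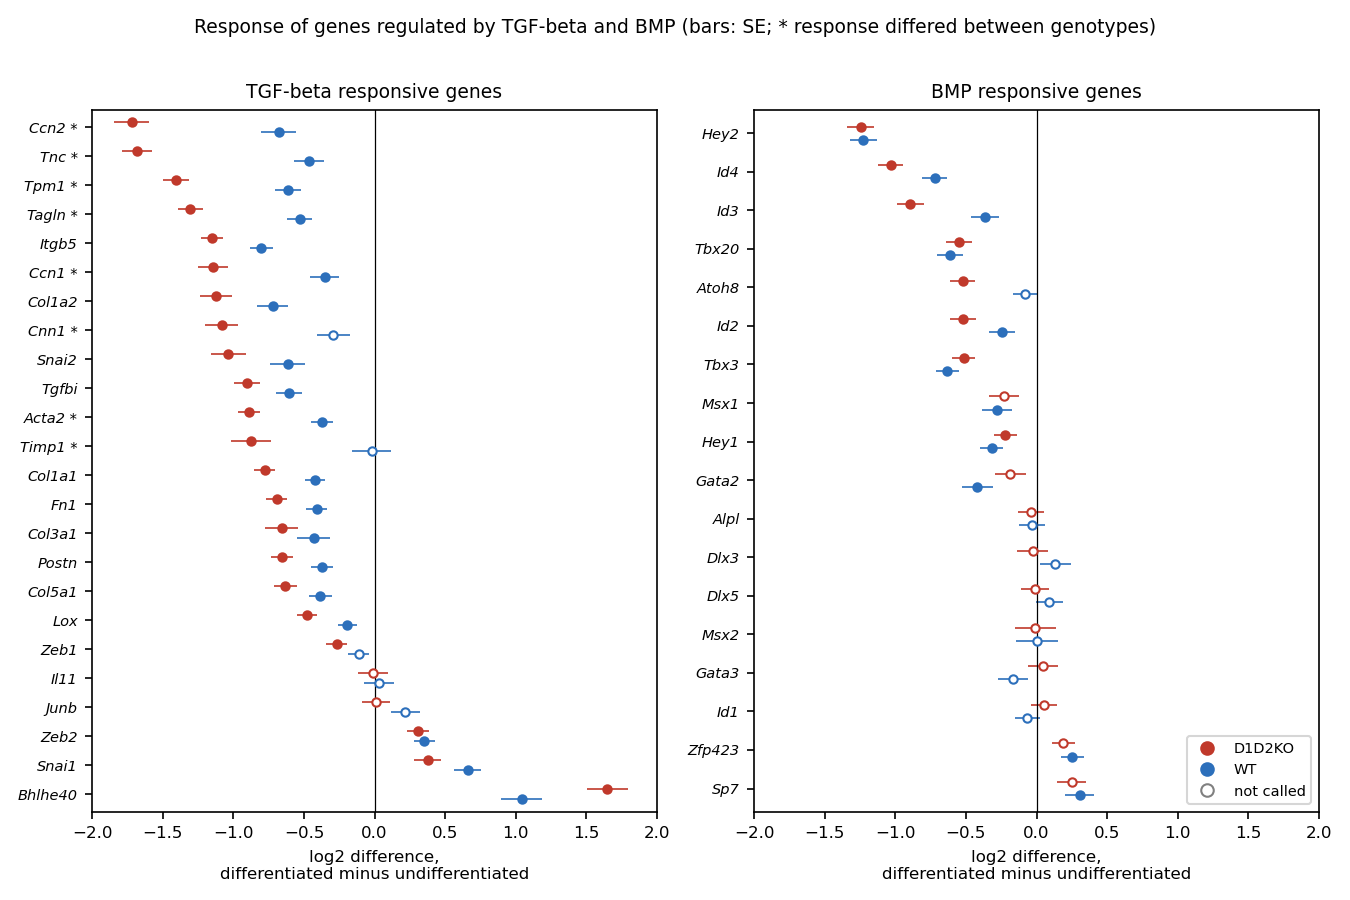
Response to differentiation (log2 differentiated minus undifferentiated, horizontal axis) of 24 genes known to respond to TGF-beta (left) and 18 known to respond to BMP (right), with D1D2KO in red above WT in blue, bars for the SE, open points for genes not called and an asterisk where the response differed between the genotypes. In the left panel 8 genes carry an asterisk, all with the D1D2KO point further left, and in the right panel 0 do.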

How the data were processed

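RNA of 12 samples, 3 in each of 4 groups, was measured on mouse gene arrays. The deposited values are taken as log2 signals because they run from 1.15 to 14.17 in the deposited table, which leaves the log base inferred. The authors' summarisation and normalization are not given in the sources used here, and no detection calls were used. Column medians ran from 5.61 to 5.69, and sorted columns differed by up to 0.533. Of 35556 probe sets, 21789 were annotated to 1 gene, 1621 to several and 12146 to none, and of several probe sets of a gene (999 genes) the one with the highest mean was kept. Symbols were matched to RefSeq (GRCm38.p6) for 56 of 56 genes. The table held 0 columns of other samples.

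The limma package (version 3.58.1, run in R 4.3.3) fitted group means to all 12 arrays, with moderated variances, 5 contrasts and Benjamini-Hochberg adjustment over 19938 genes, and an adjusted p under 0.05 was called. On simulated data with 100 changed genes of each size among 19938, changes of 0.5 log2 units were recovered for 87% (differentiation in D1D2KO), 79% (in WT), 83% and 84% (genotype, differentiated and undifferentiated) and 48% (difference between responses), and changes of 1 unit for 100% in each, with 8, 8, 15, 9 and 9 false calls in the same order. Far fewer genes changed there than were called with differentiation in the data (7311 in D1D2KO and 6794 in WT cells). The simulated noise was also independent between genes, so these rates do not give the power of the tests on the data.

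The genes, the 170 genes of the pathway and marker lists (164 measured) and the tests were chosen with earlier results of these data known. Per-sample values are given for up to 8 called genes with the largest rise and fall in each contrast, for those called between genotypes or in response, and for uncalled genes of high signal. From each list the 4 called genes that changed most and at most 2 uncalled ones were named in a contrast, and the further genes called between the genotypes or in response were named after their values were seen. Same-numbered samples deviated together in every pair only for differentiated against undifferentiated D1D2KO cells (correlations 0.101 to 0.176), and the labels state no pairing. Alternatives were median centring, quantile normalization, a filter on low signal, the mean of probe sets, trended or robust variance, array weights, a replicate block, only the groups compared, and leaving out each sample.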

Additional observations from a re-analysis of the deposited data

Results flagged for a closer look

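By a test of the difference itself (limma, Benjamini-Hochberg adjusted), which called 1.46% of all genes, the response to differentiation differed between D1D2KO and WT cells for 15 of the genes described. It was more positive in D1D2KO cells for Acvr1c (0.94, SE 0.15), whose 6 undifferentiated samples lay under the lower quartile of their arrays, so that -0.27 of genotype difference near background enters it, while the difference in differentiated cells alone was 0.66. It was more negative in D1D2KO cells for Tgfb3 (-0.86, SE 0.16) and Ltbp2 (-0.74, SE 0.12), for the modulators Tll1 (-1.04), Crim1 (-0.62), Thbs1 (-0.55) and Fmod (-0.50), and for the TGF-beta responsive genes Tnc (-1.22), Ccn2 (-1.04), Timp1 (-0.86), Tpm1 (-0.79), Cnn1 (-0.79), Ccn1 (-0.79), Tagln (-0.77) and Acta2 (-0.52). The call of Fmod ended with the replicate number as a block (adjusted p = 0.0534). Groups of 3 samples were not tested for outlying samples.

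The probe set left out because several genes share it was higher in differentiated D1D2KO than WT cells, by 0.38 (SE 0.09, limma adjusted p = 0.0379 over 35556 probe sets). It had 6.51, 6.27 and 6.28 in differentiated D1D2KO against 6.06, 5.91 and 5.96 in differentiated WT cells, and 6.48, 6.43 and 6.54 in undifferentiated D1D2KO against 6.19, 6.01 and 6.24 in undifferentiated WT cells, and which of its genes gives the signal cannot be told apart.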

How the results depend on the processing

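Of 5739 values of the 56 genes compared across the alternatives, 0 reversed a call, and 157 uncalled values changed sign. The 5 calls between undifferentiated D1D2KO and WT cells became 14 with array weights and 9 with only the 2 groups fitted. The 3 differences in response became 7 among genes above the median signal (39 of the 56 kept, and fewer genes tested), 5 with a trended variance and 6 with array weights, and the cause was not tested for the variance and weights. Leaving out 1 sample gave 34 to 38 calls for differentiation in D1D2KO cells, 29 to 37 in WT cells, 14 to 18 between differentiated and 3 to 6 between undifferentiated genotypes, and 3 to 4 differences in response. With the replicate number as a block the counts were 36 and 33 for differentiation in D1D2KO and WT cells, 19 and 6 between the genotypes after and before differentiation, and 3 in response. Under the block Fmod lost its call in response (adjusted p = 0.0534), Acvrl1 lost its call in D1D2KO cells (-0.21, adjusted p = 0.0557 by limma), and Bmp8b gained one in undifferentiated cells (adjusted p = 0.0416). Over all genes the 1600 calls between undifferentiated genotypes were 339 without WT undifferentiated replicate 2, 838 after quantile normalization, 881 above the median signal, 2597 with only the 2 groups and 4224 with array weights. The 2726 between differentiated genotypes were 1344 without WT differentiated replicate 2 and 1184 with only the 2 groups. The 291 differences in response were 159 without WT undifferentiated replicate 1, 449 without WT differentiated replicate 3, 472 with a trended variance, 537 above the median signal and 604 with array weights. List counts between undifferentiated genotypes moved with array weights to 9 of the modulators, 4 of the regulators, 7 of the TGF-beta responsive and 8 of the BMP responsive genes. After quantile normalization they were 2, 0, 4 and 1, and with only the 2 groups 8 modulators and 4 BMP responsive genes were called. Between differentiated genotypes only the 2 groups gave 9 modulators, 1 regulator and 3 BMP responsive genes. Low signals, the 3 arrays per group and the lack of detection calls limit what can be seen for genes near the lower quartile.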
